A study of Mus musculus with 4 samples.

Results

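Solute carriers are membrane proteins that move sugars, amino acids, nucleotides, vitamins, metals and ions across the plasma membrane and the membranes of organelles. The genes described here are the solute carrier genes other than 10 amino acid transporters that were left out by name (*Slc7a1*, *Slc7a3*, *Slc7a5*, *Slc7a6*, *Slc7a11*, *Slc3a2*, *Slc1a4*, *Slc1a5*, *Slc6a9* and *Slc38a2*). They were found by symbol, as Slc, a family number, a letter from a to d and a member number, with a mean over the 4 libraries of at least 10 normalized counts. The symbol pattern matched 260 of the 18598 genes listed, of which 37 had a lower mean and 10 were those left out, so 213 members in 42 families remained among the 14858 genes tested. Of the 213, 162 had a mean of at least 100 and 62 a mean of at least 1000 normalized counts. The members just inside the limit were *Slc6a4* (10.9), *Slc10a1* (11.1) and *Slc2a4* (11.6), and the genes just outside it were *Slc39a5* (9.62), *Slc1a3* (8.08) and *Slc4a11* (7.93). There were 3 members under 10 normalized counts on average in control alone and 3 in cKO alone, so these 6 passed through 1 genotype. Because 5 symbols go on past the number and name scaffolds, a pseudogene or neighbouring genes, 208 members name carriers.

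RNA was sequenced from LSK cells, bone marrow cells that lack lineage markers and show SCA1 and c-KIT, which include the stem and progenitor cells of blood. The control mice were *Bptf* f/f and the cKO mice were *Bptf* f/f;*Mx1*-cre littermates, all C57BL/6, about 3 months of age and given pIpC, and cells were taken 10 days after cre induction. Each genotype had 2 libraries, and each library pooled the bone marrow of 5 mice. BPTF is the largest subunit of the NURF chromatin remodeler, and the design asks which transcripts differ in LSK cells that have lost it. *Mx1*-cre is switched on by interferon in blood cells and in other tissues, and no library carried the cre without the floxed allele, so effects of the cre and of the deletion cannot be told apart.

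Recovered reads on listed genes ranged from 14091054 to 30134742 per library, with the replicate 1 libraries of both genotypes deeper than the replicate 2 libraries. The targeted gene checked the labels, since *Bptf* had 5520.4 and 5850.1 normalized counts in control replicates 1 and 2 and 3398 and 3319.9 in cKO replicates 1 and 2 (limma log2 difference -0.76 ± 0.090, adjusted p = 0.0439, DESeq2 adjusted p = 9.73e-08 and 8.98e-04 to 0.0595 without 1 library), while *Kit* differed by -0.010. Here and below, a log2 difference is cKO minus control on log2(normalized count + 1) from limma, and ± gives its standard error (n = 2 libraries per genotype). Values given without a unit are normalized counts, replicate 1 before replicate 2. Replicate 2 of both genotypes stood apart from replicate 1 by *Xist* (15675 and 11843 normalized counts in control and cKO replicate 2, 0.775 and 3.25 in replicate 1), by lower counts of Y-linked genes and by 7 pluripotency genes whose summed counts were 945 and 1201 in replicate 2 against 3.88 and 5.20 in replicate 1. Among markers of other cells, the 4 mast cell and basophil genes summed to 1165 and 395 normalized counts in control and 4861 and 13942 in cKO, with none at 0. The 7 erythroid genes summed to 1776 and 1508 in control and 236 and 381 in cKO, with none at 0. Sums of the 7 granulocyte genes ran from 11128 to 75450 in control and from 36969 to 46477 in cKO. In cKO, *Mpo* and *Elane* were at 166% and 140% of the control mean. *Ngp*, *Camp*, *Ltf*, *S100a8* and *S100a9* were at 36.4% to 50.9% of it, and the groups overlapped for each of the 7. The part of these shifts in the results below was not tested unless stated. In bulk RNA, fewer cells of a type and less RNA per cell cannot be told apart, and because nothing says how the replicates were made beyond the pooling, p-values measure the spread between these libraries.

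Solute carriers are grouped into families by sequence, and the family number tells much about the cargo. Family 25 sits mainly in the inner mitochondrial membrane and passes phosphate, ADP and ATP, metabolic acids and cofactors. Families 30 and 39 move zinc in opposite directions, out of and into the cytosol, and family 2 carries glucose and related sugars. Stem and progenitor cells of the marrow depend on such carriers for glutamine, folate, thiamine, iron and heme.

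The members as a list lay where the rest of the genes lay, and a minority stood out in either direction. The median log2 difference, cKO minus control, was 0.016 over the 213 members and 0.0010 over the 14858 genes tested, with quartiles of -0.22 and 0.25 for the members and -0.24 and 0.19 for all genes. In limma on log2(normalized count + 1), 0 members passed an adjusted p of 0.05 in either direction, where 0.74% of all genes did. The smallest adjusted p was that of *Slc30a4*, 0.0508. At an unadjusted limma p under 0.05 there were 24 members higher and 18 lower in cKO, 19.7% of the members against a background of 15.7% (6.79% higher and 8.96% lower). Applied to the whole reads recovered from the table, edgeR (quasi-likelihood) also called 0 members, against 0.633% of all genes.

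DESeq2 on the same reads called 10 members higher and 9 lower in cKO, of the 207 that received an adjusted p. That is 9.18% of these members beside 5.85% of all genes, and by direction 4.83% beside 2.28% higher and 4.35% beside 3.57% lower. The higher members were *Slc26a8*, *Slc7a7*, *Slc19a2*, *Slc25a33*, *Slc7a8*, *Slc30a1*, *Slc35d1*, *Slc16a6*, *Slc38a1* and *Slc25a39*. The lower ones were *Slc25a21*, *Slc38a5*, *Slc16a9*, *Slc35d3*, *Slc30a4*, *Slc22a17*, *Slc9a3r2*, *Slc36a4* and *Slc14a1*. All 19 had their cKO libraries on one side of both control libraries, which fixes the same sign within each replicate number. They were called from these same libraries, so this describes the calls and does not test them. Over all the members, the cKO libraries lay above both control libraries for 63, 29.6% beside a background of 23.2%, and below both for 51, 23.9% beside 23.8%. With 2 libraries against 2, an exact permutation test cannot go below p = 0.333. Below, called means called by DESeq2 at an adjusted p under 0.05, since neither limma nor edgeR called a member.

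These calls depended on which libraries entered. Each fit below kept 1 library in a genotype, and its DESeq2 calls over all genes are not given here. The counts therefore do not set the members apart from other genes. DESeq2 without cKO replicate 1 called 0 members higher and 3 lower (*Slc22a17*, *Slc30a4* and *Slc35d3*), and without cKO replicate 2 it called 0 higher and 3 lower (*Slc25a21*, *Slc30a4* and *Slc38a5*). Without control replicate 1 it called 6 higher, 4 of them among the 10 (*Slc16a6*, *Slc19a2*, *Slc7a7* and *Slc7a8*), and 1 lower (*Slc30a4*). Without control replicate 2 it called 1 higher (*Slc19a2*) and 6 lower (*Slc14a1*, *Slc22a17*, *Slc30a4*, *Slc35d3*, *Slc36a4* and *Slc38a5*). *Slc30a4* was thus the 1 member called in every one of these fits. The 10 amino acid transporters left out by name had a median log2 difference of 1.53, and DESeq2 called 8 of them higher. They were left out with their values known, so the counts of the remaining members describe what is left after carriers with large rises were set aside.

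**Figure D1:**
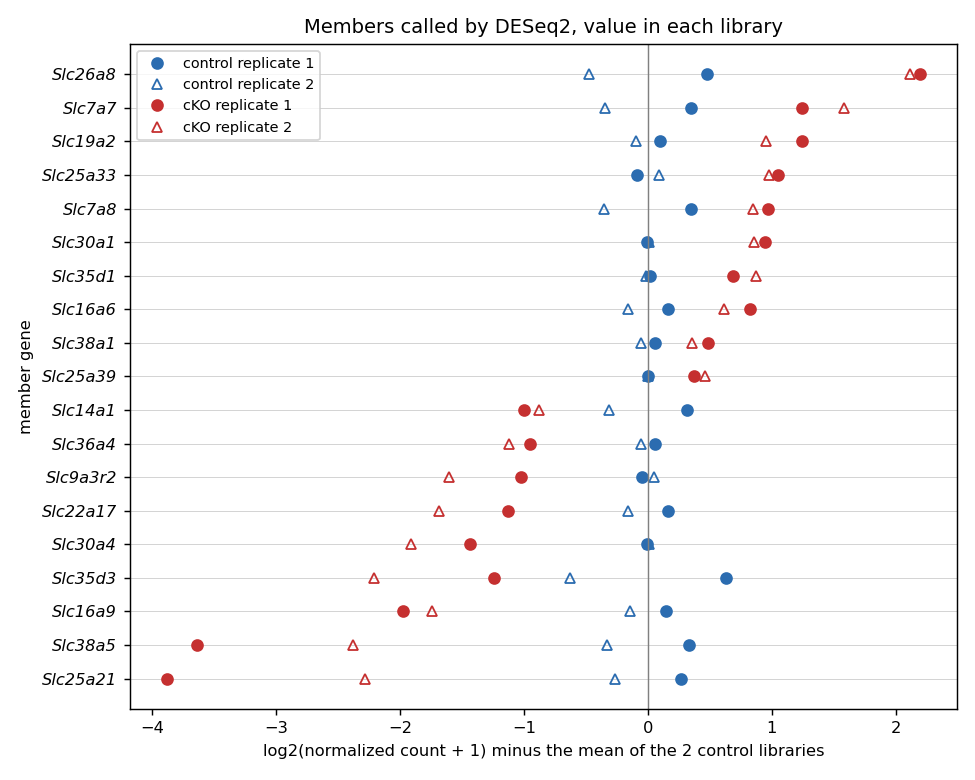
The 19 members called by DESeq2 are plotted by gene (vertical axis) against log2(normalized count + 1) in each library minus the mean of the 2 control libraries (horizontal axis). Circles are replicate 1 and triangles replicate 2, control in blue and cKO in red, and no red point crosses its gene's blue points, while the red points of *Slc25a21* and *Slc38a5* lie far apart from each other.

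The zinc carriers held the member with the smallest p by each tool, a lower *Slc30a4*, beside a higher *Slc30a1*. Both genes encode zinc exporters of family 30. The *Slc30a1* product takes zinc out across the plasma membrane and is a textbook target of the zinc-sensing factor MTF1, and the *Slc30a4* product loads zinc into vesicles. MTF1 binds metal response elements, whose core was searched as TGCACNC or TGCGCNC on both strands. RefSeq promoters of both genes, 250 bases before to 50 after the start site on GRCm38.p6, are shown because both hold the core, which is in capitals and reads from the opposite strand in each case.
Slc30a1: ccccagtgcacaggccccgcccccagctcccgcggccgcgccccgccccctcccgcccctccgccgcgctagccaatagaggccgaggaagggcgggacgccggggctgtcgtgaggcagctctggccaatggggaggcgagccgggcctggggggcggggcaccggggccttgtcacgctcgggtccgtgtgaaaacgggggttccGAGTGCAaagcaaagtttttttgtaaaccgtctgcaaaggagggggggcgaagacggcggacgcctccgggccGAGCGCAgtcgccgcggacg
Slc30a4: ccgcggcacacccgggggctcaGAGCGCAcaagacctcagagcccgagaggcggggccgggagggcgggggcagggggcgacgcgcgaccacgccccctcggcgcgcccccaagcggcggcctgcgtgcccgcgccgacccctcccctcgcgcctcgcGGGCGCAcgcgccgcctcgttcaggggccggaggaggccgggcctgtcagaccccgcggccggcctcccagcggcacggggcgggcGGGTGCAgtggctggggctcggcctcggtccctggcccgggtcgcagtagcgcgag
The first is chr1:191906531-191906830 on the + strand and the second chr2:122702614-122702913 on the - strand, each written along its gene. There were 2 matches for *Slc30a1*, beginning at positions -43 and 30 from the start site, and 3 for *Slc30a4*, at -228, -92 and -6. The core is a frequent string, found in 25.7% of the 32851 promoters of this length, in 4 of 7 promoters of the zinc exporters and in 5 of 11 promoters of the zinc importers. Those 11 promoters belong to 8 of the 11 importers. A match describes letters only, and here it stands before both a higher and a lower gene.

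*Slc30a4* (GRCm38 chr2:122681233-122702663, - strand) had 562 and 569.6 normalized counts in control replicates 1 and 2 and 209 and 149.6 in cKO replicates 1 and 2, so that cKO held 31.7% of the control mean. The control libraries were nearly equal and lay far above both cKO libraries. Its log2 difference was -1.67 ± 0.21 with a 95% interval of -2.21 to -1.14, DESeq2 gave an adjusted p of 8.91e-08, and leaving out any library in turn gave 5.82e-04 to 0.00716. *Slc30a1* (chr1:191906767-191913247, + strand) had 220.1 and 222 normalized counts in control replicates 1 and 2 and 426 and 401 in cKO replicates 1 and 2, a 1.87-fold higher mean without overlap. The log2 difference of *Slc30a1* was 0.90 ± 0.16, and its DESeq2 adjusted p of 0.00307 became 0.175 to 0.868 with a library left out. The other exporters of the family were not called. *Slc30a5*, *Slc30a6* and *Slc30a7*, which supply zinc to the secretory pathway, differed by 0.20, 0.13 and 0.067 on the log2 scale. The mitochondrial *Slc30a9* differed by 0.042, and *Slc30a2* had at most 30.5 normalized counts in any library.

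The 11 zinc importers of family 39 had a median log2 difference of 0.19, with 7 above 0, and 0 were called in either direction by limma, edgeR or DESeq2. The highest differences were those of *Slc39a7*, which releases zinc from the endoplasmic reticulum, and *Slc39a14*, an importer of zinc and iron. *Slc39a14* had 604 and 743 normalized counts in control replicates 1 and 2 and 1000.2 and 947 in cKO replicates 1 and 2, higher in both cKO libraries (log2 0.54 ± 0.15, DESeq2 adjusted p = 0.0838). *Slc39a7* had 122 and 193 in control and 207 and 246 in cKO (log2 0.56 ± 0.28), but 80.7% of its exon bases are shared with *Gm20427* on the same strand, so reads of the pair may have been split or lost. *Slc39a10* (0.32), *Slc39a6* (0.39) and *Slc39a11* (0.24) were also higher in both cKO libraries without being called. Of the rest, *Slc39a9*, the importer with the highest mean, differed by 0.19, *Slc39a3* by 0.11, *Slc39a1* by -0.041, *Slc39a13* by -0.051, *Slc39a8* by -0.054 and *Slc39a4* by -0.40. Outside the symbol rule, the zinc-binding metallothionein *Mt1* had 267 and 261 normalized counts in control replicates 1 and 2 and 408 and 667 in cKO replicates 1 and 2 (log2 0.98 ± 0.26, limma adjusted p = 0.185, DESeq2 adjusted p = 0.0239). Without 1 library the DESeq2 value of *Mt1* ran from 0.0653 to 1.00. *Mt2* stayed low, at 5.85 to 26.3, and *Mtf1* itself differed by 0.12.

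**Figure D2:**
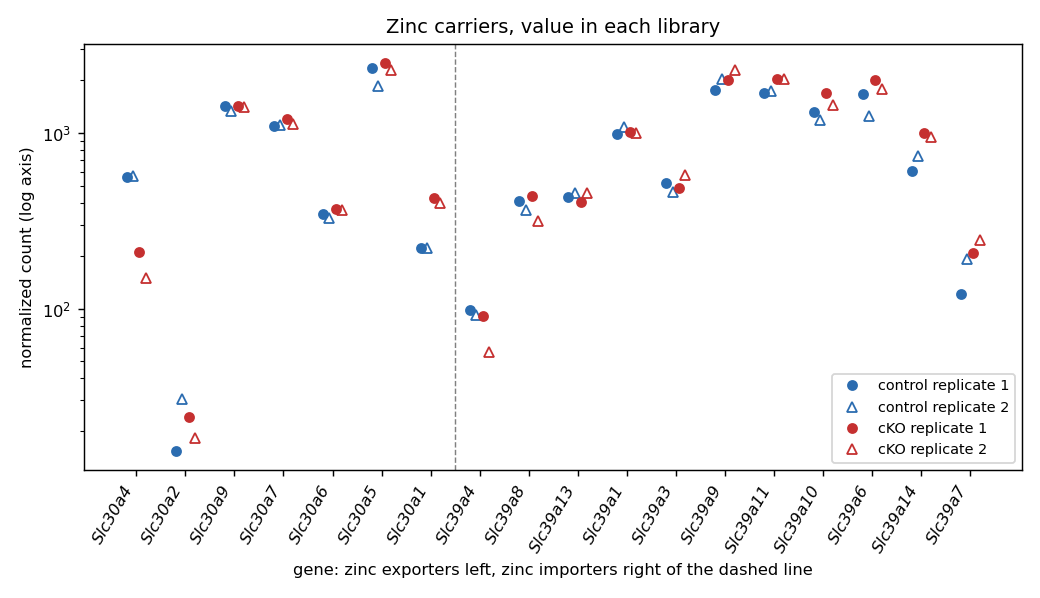
Normalized counts on a log axis (vertical) of the 7 zinc exporters, left of the dashed line, and the 11 zinc importers, right of it, with 1 point per library; circles are replicate 1, triangles replicate 2, blue control and red cKO. *Slc30a4* shows both red points below the blue ones and *Slc30a1* both above, while *Slc30a5*, *Slc30a6*, *Slc30a7* and *Slc30a9* keep their 4 points close together.

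Of the vitamin and cofactor carriers, a thiamine transporter gene was the 1 called. *Slc19a2* encodes a high-affinity thiamine transporter whose loss causes a thiamine-responsive megaloblastic anemia. It had 305 and 266 normalized counts in control replicates 1 and 2 and 675 and 553 in cKO replicates 1 and 2, a 2.15-fold higher mean without overlap (chr1:164249046-164265385, + strand). The log2 difference was 1.10 ± 0.17 and nearly equal within the replicate numbers, 1.15 and 1.05. DESeq2 gave an adjusted p of 1.39e-04, and 0.0145 to 0.522 without 1 library. The 13 vitamin and cofactor carriers together had a median of 0.25, with 8 above 0 and 5 below. Among them *Slc19a1*, the reduced folate carrier and the group's most abundant member, differed by 0.27 ± 0.11, *Slc33a1*, which brings acetyl-CoA into the endoplasmic reticulum, by 0.47 ± 0.15, and the vitamin C transporter *Slc23a2* by -0.14 ± 0.10. Exons of *Slc33a1* overlap *Gm26850* on the opposite strand over 32.0% of their bases. Of the riboflavin transporters, *Slc52a2* differed by 0.21 and the sparse *Slc52a3*, at 54.3 and 76.2 in control and 34.4 and 24.0 in cKO, by -1.13. *Slc46a3*, a lysosomal relative of the folate carrier *Slc46a1*, had 124 and 183 in control and 71.5 and 111 in cKO (-0.75). Apart from *Slc19a2*, none of these was called.

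Mitochondrial carriers formed the largest group, and most of them differed little. The 41 members had a median log2 difference of -0.0056, with 20 above and 21 below 0, and DESeq2 called 2 higher and 1 lower. *Slc25a33* encodes a carrier of pyrimidine nucleotides for mitochondrial DNA and RNA. It had 101 and 114 normalized counts in control replicates 1 and 2 and 222 and 212 in cKO replicates 1 and 2, about level within each genotype and without overlap (log2 1.01 ± 0.21, DESeq2 adjusted p = 0.0217, 0.261 to 1.00 without 1 library). Its paralog *Slc25a36* differed by 0.0076 ± 0.15. *Slc25a39*, a mitochondrial glutathione carrier, was far more abundant at 2351 and 2349 in control and 3034 and 3241 in cKO (log2 0.42 ± 0.093, DESeq2 adjusted p = 0.0278, 0.362 to 1.00 without 1 library). Its relative *Slc25a40* was at 374 and 287 in control and 380.2 and 271 in cKO (log2 -0.030).

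*Slc25a21*, which carries oxodicarboxylates of lysine and tryptophan breakdown, was the called mitochondrial member that was lower. It had 62.8 and 43.0 normalized counts in control replicates 1 and 2 and 2.60 and 9.88 in cKO replicates 1 and 2. With a cKO mean of 6.24 it reached the filter's mean of 10 only through its control libraries, so a gene let in this way had to differ. Its values are thus a description, and the cKO libraries, at 4 reads in the lowest, differed from each other more, on the log2 scale, than those of any other called member. The log2 difference was -3.08 ± 0.69, -4.15 within replicate 1 and -2.02 within replicate 2, with a DESeq2 adjusted p of 0.0114 and 0.0393 to 0.78 without 1 library. The other carriers of di- and tricarboxylates lay nearer 0. Citrate (*Slc25a1*), dicarboxylate (*Slc25a10*) and oxoglutarate (*Slc25a11*) carriers differed by -0.22, 0.055 and 0.025, the aspartate-glutamate carriers *Slc25a12* and *Slc25a13* by -0.21 and -0.031, and the glutamate carrier *Slc25a22* by -0.23.

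The carriers of the ATP cycle were the most abundant transcripts per length among the 213 members. In control, *Slc25a5* stood at 4460 normalized counts per kb of transcript, *Slc25a3* at 2758, *Slc25a4* at 1496 and *Slc25a39* at 1395. *Slc25a3*, the phosphate carrier, had 10775 and 11508 normalized counts in control replicates 1 and 2 and 12030.1 and 11008 in cKO replicates 1 and 2, and the groups overlapped. The ADP/ATP carriers *Slc25a4* and *Slc25a5* likewise overlapped, with log2 differences of 0.0081 ± 0.10 and 0.11 ± 0.11. These genes have processed copies in the genome whose reads can be hard to separate, so the levels are uncertain. The calcium-regulated ATP-magnesium/phosphate carrier *Slc25a23* had 1833 and 1314 in control and 1226 and 838 in cKO, lower in both numbers (log2 -0.61 ± 0.24) but not called, while *Slc25a24* and *Slc25a25* differed by 0.070 and 0.22 and the sparse *Slc25a41* had at most 22.6 normalized counts.

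Carriers tied to heme and iron were followed beside the erythroid markers, whose sums were lower in cKO. *Slc25a38*, which brings glycine into mitochondria for the first step of heme synthesis, had 535 and 446 normalized counts in control replicates 1 and 2 and 337 and 371 in cKO replicates 1 and 2 (log2 -0.47 ± 0.16), lower without overlap and not called. The mitochondrial iron importers *Slc25a37* (mitoferrin 1), at 3666 and 2704 in control and 3799 and 2763 in cKO, and *Slc25a28* (mitoferrin 2), at 1131 and 1132 in control and 1098 and 1077 in cKO, differed by 0.041 and -0.057. The part of the erythroid shift in the *Slc25a38* values was not tested. Of the amino acid carriers in mitochondria, the ornithine carrier *Slc25a15* differed by 0.35 ± 0.13, the branched-chain carrier *Slc25a44* by -0.025 ± 0.12 and *Slc25a29*, for basic amino acids, by -0.47 ± 0.36. Of the cofactor carriers, that of carnitine and acylcarnitine (*Slc25a20*) differed by 0.25 ± 0.11 and those of coenzyme A (*Slc25a16* and *Slc25a42*) by 0.36 and -0.032. The carriers of S-adenosylmethionine (*Slc25a26*), folate (*Slc25a32*) and NAD (*Slc25a51*) differed by -0.069, 0.062 and -0.10, and the peroxisomal *Slc25a17* by -0.0056, and none was called. *Slc25a27*, an uncoupling protein relative, was at 403 and 339.6 in control and 255 and 213 in cKO (log2 -0.66 ± 0.19, not called).

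**Figure D3:**
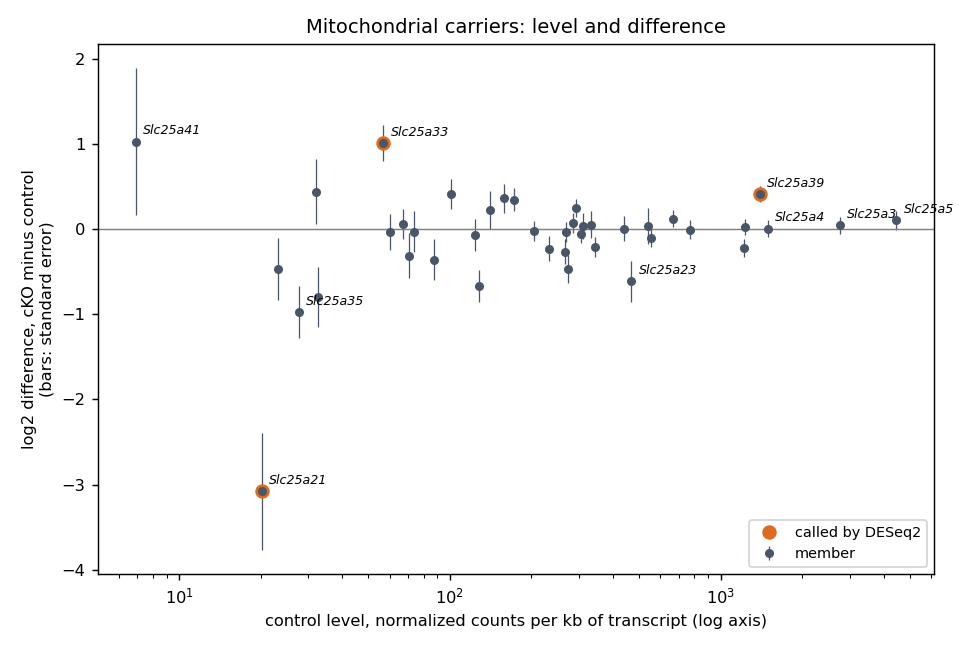
Each of the 41 mitochondrial carriers is placed by its control level in normalized counts per kb (horizontal log axis) and its log2 difference, cKO minus control (vertical). The level is per kb of transcript, bars are 1 standard error, and the 3 called members are larger orange points. The 3 most abundant carriers lie near the zero line with short bars, *Slc25a39* lies above it and *Slc25a1* below it. *Slc25a21* has the lowest difference and a long bar at a low level, while *Slc25a23* lies below the line at a higher level.

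Glucose transporters showed no call. The main transporters of these cells were *Slc2a3* (GLUT3), at 3045 and 4009.6 in control and 4019.8 and 3999 in cKO, and *Slc2a1* (GLUT1), at 756 and 1034 in control and 676 and 879 in cKO. The control and cKO libraries of both genes overlapped, with log2 differences of 0.20 ± 0.15 and -0.20 ± 0.21 and 95% intervals of -0.18 to 0.58 and -0.73 to 0.34. *Slc2a8*, an intracellular hexose transporter, was slightly higher at 211 and 239.8 in control and 252 and 337 in cKO (log2 0.37 ± 0.22), and the urate transporter *Slc2a9* differed by 0.0014. *Slc2a6* went in opposite directions within the replicate numbers (-1.70 and 1.38), *Slc2a10* differed by -0.40 ± 0.37, and *Slc2a4*, the insulin-responsive transporter, had at most 15.5 normalized counts. The median over the 8 members was 0.033, and 0.0014 over 7 without the pseudogene *Slc2a4rg-ps*. Outside the rule, the hexokinase *Hk2* had 1263 and 1716 normalized counts in control replicates 1 and 2 and 2022 and 2579 in cKO replicates 1 and 2 (log2 0.63 ± 0.20, limma adjusted p = 0.232, DESeq2 adjusted p = 0.0768), while *Hk1*, *Hk3*, *G6pc3*, *Txnip* and *Arrdc4* differed by 0.093, 0.47, 0.19, -0.14 and 0.39. None of these glucose-handling genes was called.

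Monocarboxylate carriers of family 16 included 1 member called in each direction. *Slc16a6*, whose product exports ketone bodies, had 958 and 766 normalized counts in control replicates 1 and 2 and 1514 and 1314 in cKO replicates 1 and 2 (log2 0.72 ± 0.16, DESeq2 adjusted p = 0.00869, 0.0153 to 0.816 without 1 library). *Slc16a9*, linked to carnitine and creatine transport, had 169.8 and 139 normalized counts in control replicates 1 and 2 and 38.3 and 45.2 in cKO replicates 1 and 2, so that cKO held 27.1% of the control mean. The cKO values of *Slc16a9* lay close together and well below control (log2 -1.86 ± 0.28, DESeq2 adjusted p = 2.43e-04, 0.0581 to 0.354 without 1 library). Both genes overlap others over 23.5% of their exon bases, mostly on the opposite strand, and since strand-specific counting is not stated, reads of the overlapping genes cannot be told apart. The lactate carrier *Slc16a1* (MCT1), the most abundant of the family, had 2008 and 1695 normalized counts in control replicates 1 and 2 and 2676 and 2363 in cKO replicates 1 and 2, higher in both numbers but not called (log2 0.45 ± 0.13, DESeq2 adjusted p = 0.101). *Slc16a3* (MCT4) differed by 0.12. *Slc16a12* followed the replicate number more than the genotype, at 25.6 and 143 in control and 73.4 and 147 in cKO. Among partners outside the rule, the MCT1 chaperone *Bsg* differed by 0.021, its relative *Emb* by 0.13, the lactate dehydrogenase subunit *Ldha* by 0.19 and the pyruvate carrier subunits *Mpc1* and *Mpc2* by 0.10 and -0.071. *Ldhb*, at 627 and 1016 in control and 497 and 528 in cKO, differed by -0.64 ± 0.25 and was not called (DESeq2 adjusted p = 0.177).

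Among the 26 amino acid and peptide carriers that remained after the leave-outs, DESeq2 called 3 higher and 2 lower, around a median log2 difference of -0.011. *Slc7a7* and *Slc7a8* encode light chains that reach the cell surface together with the heavy chain SLC3A2, the product of a gene left out by name. *Slc7a7*, for the exchange of basic and neutral amino acids, had 122 and 74.8 normalized counts in control replicates 1 and 2 and 227 and 288 in cKO replicates 1 and 2, higher in both cKO libraries (log2 1.41 ± 0.31, DESeq2 adjusted p = 0.00899, 0.0171 to 0.802 without 1 library). *Slc7a8*, which prefers large neutral amino acids, had 826 and 507 normalized counts in control replicates 1 and 2 and 1265 and 1168 in cKO replicates 1 and 2 (log2 0.91 ± 0.24). The control libraries of *Slc7a8* differed widely, its DESeq2 adjusted p of 0.0269 became 1.29e-04 to 0.616 without 1 library, and without control replicate 1 it passed limma as well (adjusted p = 0.0459). Their heavy chain *Slc3a2* was at 3089.6 and 3622 in control and 7962 and 8303 in cKO (log2 1.28 ± 0.11). *Slc38a1*, a sodium-coupled glutamine transporter and the most abundant member of this group, had 6227 and 5760.0 normalized counts in control replicates 1 and 2 and 8392 and 7676 in cKO replicates 1 and 2 (log2 0.42 ± 0.10, DESeq2 adjusted p = 0.0232, 0.147 to 1.00 without 1 library).

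The amino acid response element, bound by ATF4, was searched as TGATGNAA on both strands, and occurs in 3.97% of all promoters of 300 bases. RefSeq promoters were found for 8 of the 10 members called higher and 8 of the 9 called lower. Among these, *Slc7a7* was the 1 gene with the TGATGNAA letters. They were in 2 of the 12 promoters of the members called higher, both of *Slc7a7*, and in 0 of 10 of those called lower. One of the 2, which holds 2 matches, is shown. That promoter is 1 of 5 that RefSeq lists for the gene, chr14:54417895-54418194 on the - strand, with the matches in capitals.
Slc7a7: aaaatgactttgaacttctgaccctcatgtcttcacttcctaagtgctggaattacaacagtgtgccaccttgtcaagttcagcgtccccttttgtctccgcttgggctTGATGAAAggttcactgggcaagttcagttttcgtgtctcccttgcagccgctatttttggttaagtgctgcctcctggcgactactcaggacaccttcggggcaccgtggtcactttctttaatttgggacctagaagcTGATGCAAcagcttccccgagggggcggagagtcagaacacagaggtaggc
The matches begin at -141 and -1 from that start site. Of 213 member promoters, belonging to the 160 members with an entry, 5 held the letters (2.35%), and 2 of 11 promoters of the genes left out by name did, those of *Slc1a4* and *Slc7a11*. Those 11 promoters belong to 7 of the 10 genes left out. For the other letters searched, the metal response core was in 35.7% of the member promoters, the hypoxia response letters ACGTG in 27.7% against 19.6% of all promoters, and the sterol response letters TCACNCCAC in 1.88% against 1.24%. Base composition was not matched in these shares.

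The 2 amino acid carriers called lower were *Slc38a5* and *Slc36a4*. *Slc38a5*, a glutamine and glycine transporter known from red cell precursors, had 116 and 73.5 normalized counts in control replicates 1 and 2 and 6.50 and 16.9 in cKO replicates 1 and 2 (chrX:8271133-8280179, + strand). Its cKO libraries kept 12.3% of the control mean, with log2 differences of -3.97 and -2.05 within the replicate numbers (DESeq2 adjusted p = 5.13e-04, 0.00387 to 0.307 without 1 library). The sum of the 7 erythroid markers was lower in the same libraries, as given above, and the part of that shift was not tested. *Slc36a4*, a proton-linked amino acid transporter, had 558 and 517 normalized counts in control replicates 1 and 2 and 277 and 247 in cKO replicates 1 and 2 (log2 -1.04 ± 0.15, DESeq2 adjusted p = 1.69e-04, 0.0494 to 0.262 without 1 library). The differences within the replicate numbers, -1.01 and -1.06, were close to each other.

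The amino acid carriers that follow were not called. The lysosomal glutamine exporter *Slc38a7* had 386 and 309 in control and 500.4 and 547 in cKO (log2 0.60 ± 0.17), and *Slc6a13*, for GABA and taurine, had 110.1 and 165 in control and 227 and 336 in cKO (log2 1.03 ± 0.31, DESeq2 adjusted p = 0.0811). The lysosomal arginine sensor *Slc38a9* differed by 0.12, the taurine transporter *Slc6a6* by 0.011 and the branched-chain transporters *Slc43a1* and *Slc43a2* by -0.044 and -0.040. *Slc15a2*, a peptide transporter, was split by the replicate number as well as by genotype, at 1078 and 291 in control and 523 and 143 in cKO, with differences of -1.04 and -1.03 within the numbers. The serotonin transporter *Slc6a4* was at 0 and 0 in control and 2.60 and 40.9 in cKO, so that nearly all of its counts came from cKO replicate 2, the library with the highest mast cell and basophil sum.

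Nucleotide sugar carriers of the endoplasmic reticulum and Golgi, family 35, had 1 call in each direction. *Slc35d1* brings UDP-glucuronic acid and UDP-N-acetylgalactosamine into the endoplasmic reticulum for proteoglycan chains. It had 353 and 345 normalized counts in control replicates 1 and 2 and 563 and 639 in cKO replicates 1 and 2, with nearly equal control libraries well below both cKO libraries (log2 0.78 ± 0.14, DESeq2 adjusted p = 0.00534, 0.204 to 0.871 without 1 library). Its paralog *Slc35d3*, needed for the dense granules of platelets, had 368 and 154 normalized counts in control replicates 1 and 2 and 100.1 and 50.8 in cKO replicates 1 and 2. The *Slc35d3* libraries did not overlap but spread within both genotypes, with replicate 2 lower in each (log2 -1.72 ± 0.53, -1.87 and -1.58 within the numbers, DESeq2 adjusted p = 0.0262, 0.00179 to 0.812 without 1 library). The 6 megakaryocyte markers, in sum, were at 6692 and 5461 in control and 4850 and 5012 in cKO, with none at 0. *Itga2b*, with the highest mean of the 6, was at 101% of the control mean in cKO. *Pf4*, *Vwf* and *Gp1bb* were at 56.3%, 50.9% and 46.8%, and *Gp9* and *Ppbp* at 87.8% and 91.2%. Of these markers, *Pf4* alone had groups that did not overlap. The part of the megakaryocyte markers was not tested. Of the other members, *Slc35b1*, which supplies ATP to the endoplasmic reticulum, differed by 0.44 ± 0.13, the CMP-sialic acid carrier *Slc35a1* by 0.35 ± 0.12, *Slc35c2* by 0.30 ± 0.10 and the GDP-fucose carrier *Slc35c1* by 0.092 ± 0.10. The sulfate donor carriers *Slc35b2* and *Slc35b3* differed by -0.17 ± 0.11 and -0.34 ± 0.18. None of these was called, and the median over the 14 was 0.12.

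The organic ion and other carriers had 0 called higher and 2 lower among 26 members. *Slc22a17* encodes the receptor for the iron-carrying protein lipocalin 2. It had 549 and 441 normalized counts in control replicates 1 and 2 and 224 and 152 in cKO replicates 1 and 2 (log2 -1.41 ± 0.25, DESeq2 adjusted p = 2.61e-04, 0.00656 to 0.141 without 1 library). *Slc14a1*, the urea transporter that carries the Kidd blood group in humans, had 2048 and 1329 normalized counts in control replicates 1 and 2 and 824 and 895 in cKO replicates 1 and 2 (log2 -0.94 ± 0.22, DESeq2 adjusted p = 0.00307, 6.44e-06 to 0.225 without 1 library). Its within-number differences were unequal, -1.31 and -0.57. The part of the lower erythroid sums in these values was not tested. *Slc22a3*, an organic cation transporter and the group's most abundant member, had 4693 and 3233 in control and 5364 and 5044 in cKO (log2 0.42 ± 0.19). *Slc22a23* differed by -0.65 ± 0.29, and the carnitine transporter *Slc22a5* by 0.16 ± 0.12. *Slc45a3* had 210.1 and 61.0 normalized counts in control replicates 1 and 2 and 213 and 588 in cKO replicates 1 and 2, so that its difference of 1.63 rested on the replicate 2 libraries (3.25, against 0.017 within replicate 1). The mast cell and basophil sum was likewise highest in cKO replicate 2, and its part in the *Slc45a3* values was not tested.

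**Figure D4:**
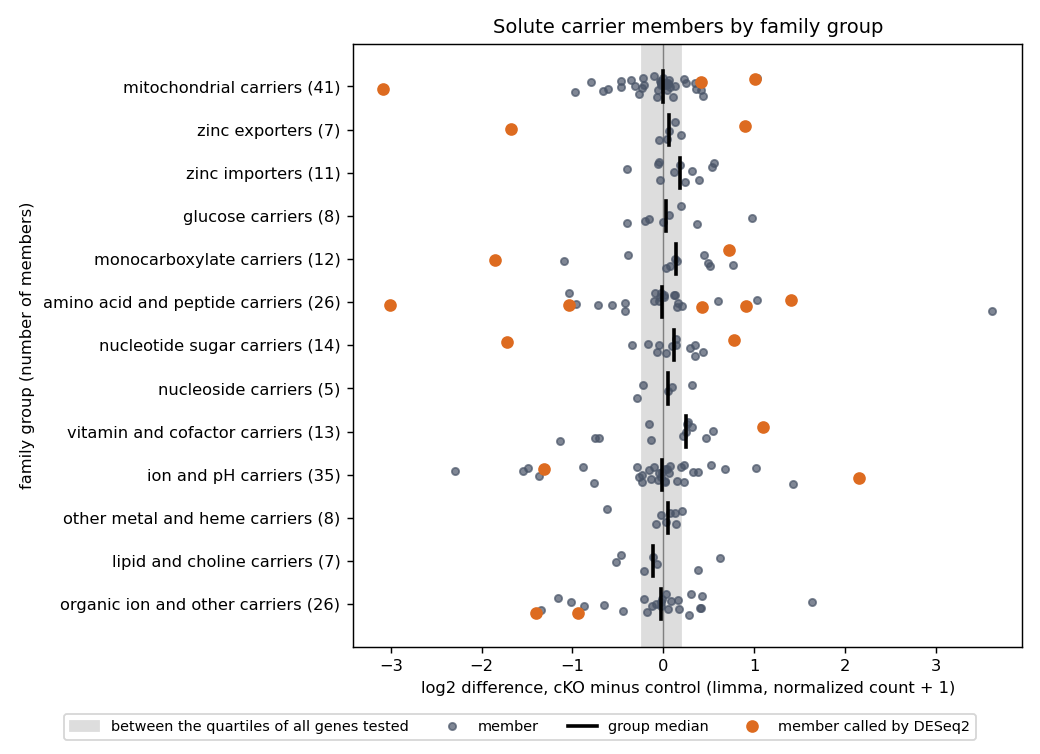
Log2 differences, cKO minus control (horizontal axis), of the 213 members in 13 family groups (vertical axis), with a black bar at each group's median, the 19 called members in orange and grey shading from the lower to the upper quartile of all genes tested. The medians of the 13 groups run from -0.11 for lipid and choline carriers to 0.25 for vitamin and cofactor carriers, and called members appear on both sides.

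The carriers of ions and of pH control numbered 35, with 17 above and 18 below 0. *Slc26a8*, an anion exchanger known from testis, had the largest higher difference among the called members but low values, 22.5 and 11.1 normalized counts in control replicates 1 and 2 and 76.0 and 72.0 in cKO replicates 1 and 2 (log2 2.15 ± 0.46, DESeq2 adjusted p = 0.0214, 0.12 to 0.98 without 1 library). At 8 reads in its lowest library, counting error weighs on this gene. Its neighbour by number, *Slc26a10*, had 41.9 and 30.5 in control and 87.7 and 109 in cKO (log2 1.42 ± 0.33, DESeq2 adjusted p = 0.063, not called). The chloride-bicarbonate exchanger *Slc4a2* differed by 0.037 ± 0.10 and the phosphate importers *Slc20a1* and *Slc20a2* by 0.20 ± 0.13 and 0.23 ± 0.12. The bicarbonate transporter *Slc4a8* had 154 and 95.6 in control and 188 and 203 in cKO (log2 0.68 ± 0.29). *Slc4a1*, the anion exchanger of red cells (band 3), had 63.6 and 8.32 normalized counts in control replicates 1 and 2 and 0.650 and 14.1 in cKO replicates 1 and 2, and its sign reversed between the replicate numbers (-5.29 and 0.70).

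Other metal and heme carriers, nucleoside carriers and lipid carriers had 0 calls by limma, edgeR or DESeq2. The heme exporter of lysosomes *Slc48a1*, the most abundant of the metal group, differed by 0.14 ± 0.10, the iron importer *Slc11a2* (DMT1) by 0.075 ± 0.16 and the copper importer *Slc31a1* by 0.13 ± 0.15. The iron exporter *Slc40a1* (ferroportin) had 254 and 189.9 normalized counts in control replicates 1 and 2 and 85.1 and 237 in cKO replicates 1 and 2, with one low cKO library and opposite signs within the numbers. The nucleoside transporter *Slc29a1* differed by 0.10 ± 0.10, and the group's median was 0.048. The choline transporter *Slc44a2* differed by -0.072 ± 0.15, and the fatty acid transporters *Slc27a1* and *Slc27a4* by -0.47 ± 0.24 and -0.11 ± 0.13.

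The 5 symbols that go on past the number are not carriers. *Slc9a3r1* and *Slc9a3r2* encode scaffold proteins that hold the sodium-proton exchanger *Slc9a3* and other membrane proteins in place. *Slc9a3r2* had 198 and 211 normalized counts in control replicates 1 and 2 and 100.1 and 66.3 in cKO replicates 1 and 2 (log2 -1.31 ± 0.28, DESeq2 adjusted p = 0.0157, 0.272 to 0.809 without 1 library). *Slc9a3r1* was more abundant, at 2518 and 2459 in control and 2506 and 2516 in cKO (log2 0.013 ± 0.090). *Slc4a1ap* differed by -0.27 ± 0.12, *Slc7a6os* by 0.0049 and *Slc2a4rg-ps* by 0.065. These symbols are counted in the groups of their family numbers.

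The differences within replicate 1 and within replicate 2 were set side by side because depth, *Xist* and the pluripotency genes split the libraries by number. Over the 213 members the differences within the numbers had a Pearson correlation of 0.51, a description over genes of 4 libraries, beside 0.54 over the 14858 genes tested. The medians were -0.0066 within replicate 1 and 0.039 within replicate 2. Members that followed the number rather than the genotype included *Slc38a4*, at 0 and 22.2 in control and 0 and 29.6 in cKO, and *Slc37a3*, at 45.7 and 133 in control and 83.2 and 134 in cKO. By level, members with a mean of at least 1000 had a median of 0.039, as had all genes of that level (0.041), members from 100 to 1000 had 0.030 against -0.036, and members from 10 to 100 had -0.16 against -0.058.

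**Figure D5:**
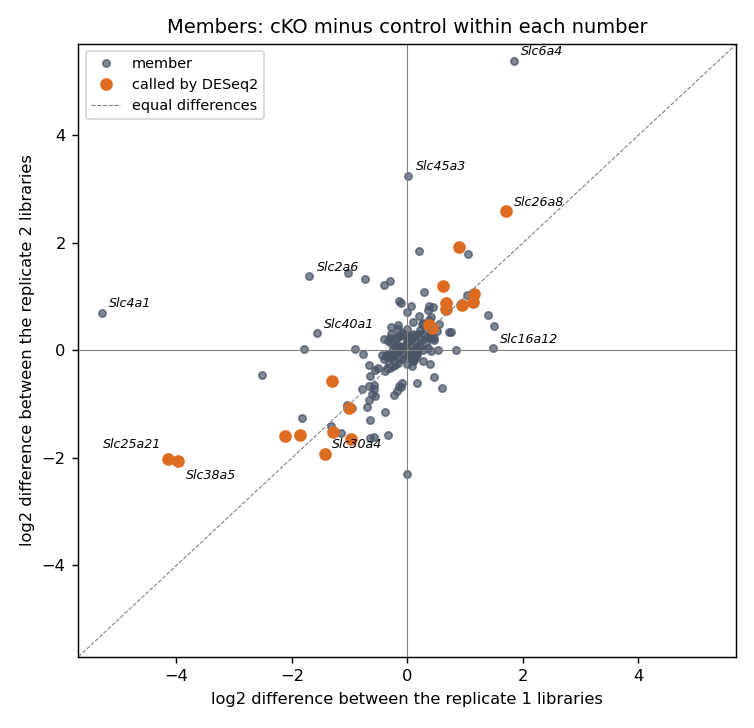
Each of the 213 members is placed by its log2 difference, cKO minus control, between the replicate 1 libraries (horizontal) and between the replicate 2 libraries (vertical), with the 19 called members in orange and a dashed line of equal differences. The called members lie in the lower left and upper right, while *Slc4a1*, *Slc2a6* and *Slc40a1* lie in the upper left, and *Slc45a3* and *Slc6a4* are high within replicate 2.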

How the data were processed

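RNA-seq of LSK cells was analysed in 2 control and 2 cKO libraries, grouped by their titles. The authors deposited, for each gene and library, a signal made by scaling the gene's count with the library's size factor, called the normalized count here, and its mean over the libraries. Submitters' processing notes name HISAT2, featureCounts, DESeq2, GRCm38 and mm10 without versions. The authors' deposited log2 fold change, its standard error and test statistic (each a score) and p-value and adjusted p-value were not used. Dividing by each library's smallest step gave whole reads for 100% of the values (tolerance 0.01), 14091054 to 30134742 per library. At this depth, counting error weighs mainly on members with few reads, and 2 libraries per genotype limit the rest.

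Genes whose mean reached 10, 14858 in number, were compared with limma 3.58.1 (R 4.3.3, mean-variance trend) on log2(normalized count + 1), with genotype as the only factor, two-sided, with Benjamini-Hochberg adjustment over all of them. Because the reads are counts, edgeR 4.0.16 (quasi-likelihood) and DESeq2 1.42.0 were run on them as alternatives. The fits were run on simulated counts with the same dispersion for every gene and no effect of the replicate number. These libraries differ in both respects, so the simulation does not test the fits for them. Levels per kb, positions and exon overlaps are from GENCODE vM21, which matched all 213 members, and promoters from RefSeq on GRCm38.p6, found for 160 members. Python 3.11.15, numpy 2.4.6, pandas 2.3.3 and matplotlib 3.10.9 summarised and drew the values.

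Members named are those called by any of the 3 tools, the 10 highest and 10 lowest by log2 difference among members with a mean of at least 100 and no overlap of the groups, the most abundant of each family group, families 2, 30 and 39, the listed roles of family 25, and listed genes outside the rule. Some genes that this rule names are not reported here. Others were chosen after their values were seen. Members, lists and tests were chosen with earlier results of these data known.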

Additional observations from a re-analysis of the deposited data

How the results depend on the processing

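Of the 26 members that a tool called or that had the largest differences, 0 changed sign under the alternatives run. All 26 had their cKO libraries on one side of both control libraries, so leaving out a library could not reverse a sign in limma. The 0 members called higher and 0 lower by limma became 10 and 9 with DESeq2, with 1 member, *Slc30a4*, called lower with no filter on low values or a pseudocount of 0.5, and 0 to 1 higher with a library left out. Recentring on medians, quantile normalization, a pseudocount of 10, a mean of at least 50 and limma without the trend called 0 members in either direction. Over all genes, 55 higher and 55 lower became 319 and 500 with DESeq2 and 2 and 0 without the trend, and ran from 1 to 76 higher and 0 to 41 lower with a library left out. DESeq2 with a library left out, chosen after seeing the data, called 0 to 6 members higher and 1 to 6 lower. With all libraries and a fold change above 1.5, also chosen after seeing the data, it called 8 and 9. Where a group kept 1 library, that library was assumed to vary like the others, and the cause of these shifts was not tested. The DESeq2 calls over all genes with a library left out are not given here. The labels do not say what a replicate number shares, and same-numbered libraries deviated together from their group means (correlation 0.452 over 14858 genes). With the replicate number as a block, limma called 21 members higher and 17 lower (896 and 1242 of all genes), edgeR 22 and 17 (891 and 1229) and DESeq2, chosen after seeing the data, 11 and 11 (382 and 560). The limma block fit called *Slc15a2*, *Slc6a13* and *Slc38a7* (adjusted p = 6.15e-04, 0.00411 and 0.0230), which limma, edgeR and DESeq2 on all libraries without the block did not. The same block fit called 3 of the 11 zinc importers higher and 0 lower, where the fits without the block called 0. It called 9.86% of all members higher and 7.98% lower. Calls rose over all 14858 genes too, from 55 and 55 to 896 and 1242, so the rise was not particular to the importers.

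The group medians of the log2 difference, -0.11 to 0.25, moved with a library left out, as glucose carriers did from 0.033 to 0.19 without cKO replicate 1 and organic ion carriers from -0.025 to -0.23 without control replicate 2. Recentring on medians gave 0.068 for all members, 0.046 for mitochondrial, 0.24 for zinc importer, 0.040 for amino acid, 0.30 for vitamin and 0.034 for ion carriers. Quantile normalization gave 0.16 for zinc importers and 0.022 for ion carriers, and a mean of at least 50 gave -0.060 for nucleoside and 0.014 for ion carriers. With a library left out, the median ran from -0.020 to 0.050 for all members, -0.17 to -0.050 for lipid carriers, -0.074 to -0.0065 for mitochondrial carriers, 0.033 to 0.14 for zinc exporters, 0.18 to 0.23 for zinc importers, 0.0032 to 0.19 for glucose, -0.040 to 0.27 for monocarboxylate, -0.058 to 0.11 for amino acid, 0.0050 to 0.19 for nucleotide sugar, -0.072 to 0.017 for ion, -0.014 to 0.058 for other metal and -0.23 to 0.039 for organic ion carriers. Without control replicate 2, the medians of all members and of monocarboxylate and other metal carriers fell below 0. Depth limits members with few reads, such as *Slc25a21*, with 4 in its lowest library.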

Other observations

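Transporters of related function outside the symbol rule were not called by limma, edgeR or DESeq2. The mitochondrial uncoupling protein *Ucp2* had 14341 and 8500.1 normalized counts in control replicates 1 and 2 and 12032 and 9322 in cKO replicates 1 and 2. The sideroflexins *Sfxn1*, *Sfxn2* and *Sfxn3*, which carry serine and related cargo in mitochondria, differed by 0.10, -0.22 and -0.20 on the log2 scale. The organic anion transporters *Slco3a1* and *Slco4a1* were higher in both cKO libraries without passing a test, at 2894 and 2043 in control and 3053 and 3179 in cKO for the former and 1119 and 779 in control and 1124 and 1211 in cKO for the latter.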
